A study of Mus musculus with 9 samples.

Results

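The SR, hnRNP, SF3 and Rbm splicing factors were followed in β-actin knockout fibroblasts of the mouse embryo, transfected for 6 h with a synthetic DNA or a synthetic double-stranded RNA. The genes are those protein-coding genes whose GENCODE M21 symbol starts with Srsf and a digit, Hnrnp, Sf3a or Sf3b, or Rbm and a digit, with Rbm43 left out. The rule itself uses symbols and no measured value, but it was set with earlier results of these data known. It gave 78 of the 46603 genes counted, namely 11 SR, 20 hnRNP, 9 SF3 and 38 Rbm genes. The Rbm prefix stands for RNA-binding motif and is a naming family, so it also holds genes whose products do not splice.

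All 9 libraries came from β-actin knockout fibroblasts of BALB/c origin, prepared from embryos of day 10.5, and the knockout cells were received from another laboratory. Whether they derive from 1 clone is not in the labels. Mock cells had the transfection reagent, Lipofectamine 2000, and nothing else. The treated cells had 10 µg/ml of poly(dA:dT), a DNA duplex, or of poly(I:C), an RNA duplex, with the same reagent. There were 3 libraries in each of these 3 groups. Whether libraries of 1 group stem from different cultures is not in the labels, and the p-values below then reflect only how much these libraries vary, a spread that can be technical. Wild-type cells were not analysed here, so every difference below is one between treatments within knockout cells.

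Splicing removes introns from pre-mRNA. SR proteins carry an arginine-serine-rich tail and mostly bind exonic enhancers, where they recruit the spliceosome, whereas hnRNP proteins coat nascent transcripts and often act against exon inclusion. SF3a and SF3b are subcomplexes of the U2 snRNP that hold the branch point of the intron. Many of these genes control their own level through alternative exons that send the transcript to nonsense-mediated decay, and splicing factors also shape the RNAs of the antiviral response that cytosolic DNA and double-stranded RNA start through the cGAS and RIG-I-like sensors.

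Levels are read counts per gene scaled to a common library size and printed as CPM, with library sizes corrected by TMM. A gene is called higher or lower where edgeR's quasi-likelihood test, fitted to all 9 libraries, gave a Benjamini-Hochberg adjusted p under 0.05 over the 14176 genes tested. Fold changes are given as log2 values with their standard error (SE). The libraries held 16082772 to 29219797 assigned reads. Actb stood at 33.3 ± 1.29 CPM in mock (SD, n = 3), 30.6 ± 1.29 with poly(dA:dT) and 32.4 ± 1.34 with poly(I:C) and was not called in either comparison. Ifit1, an interferon-induced gene, stood at 1.29 ± 0.0611, 124 ± 0.793 and 1176 ± 25.2 CPM in the same order. The summed level of 9 fibroblast markers ranged from 5588 to 5782 CPM in mock, 4850 to 4974 with poly(dA:dT) and 3931 to 4197 with poly(I:C). Lum was at 0 in the treated groups and had too few reads in any group to be tested. A list of 6 leukocyte markers summed to 6.10 to 7.41, 5.22 to 6.18 and 3.96 to 4.91 CPM. Ptprc was at 0 throughout. Adgre1, Itgam and Cx3cr1 were also at 0 in mock, Adgre1 and Cx3cr1 with poly(dA:dT), and none but Ptprc with poly(I:C). Of the 2 tested leukocyte markers, 1 was called lower with poly(I:C) and none with poly(dA:dT). Between the treatments, 1 was called higher with poly(I:C) (1.296) and 1 lower (-0.52). The sum over 6 endothelial markers was 0.789 to 1.11, 2.74 to 3.25 and 4.65 to 4.83 CPM. The part of these marker shifts in the results below was not tested. In bulk RNA, fewer cells of a type and less RNA per cell cannot be told apart.

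Of the 78 genes, 71 had enough reads to be tested, made up of 10 SR, 20 hnRNP, 9 SF3 and 32 Rbm genes. The 7 untested genes were Srsf12, Rbm11, Rbm24, Rbm31y, Rbm42, Rbm44 and Rbm46. Rbm31y and Rbm46 had no read in any library. Rbm42 shares 75.4% of its exon bases with the readthrough gene Gm21982, and its own counts were near 0. The other untested genes stayed under 0.5 CPM in every library.

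Most of these genes changed by small amounts and in either direction. With poly(dA:dT), 17 of the 71 tested genes were called higher and 32 lower, where 26.6% of all tested genes were called higher and 26.2% lower. With poly(I:C), 30 were called higher and 32 lower, against 39.8% and 36.3% of all tested genes. The median log2 fold change was -0.04 with poly(dA:dT) and -0.02 with poly(I:C), and 0.01 and 0.04 over all tested genes. These directions depend on the scaling: with library totals in place of TMM, which shifts the median of all genes by 0.0741 and 0.114, the medians were 0.03 and 0.10 and the counts 27 higher and 17 lower, and 38 higher and 24 lower. None of the 71 genes was called with a change of at least 2-fold after poly(dA:dT), where 3.84% of all tested genes were at least 2-fold higher and 0.0635% at least 2-fold lower. After poly(I:C), 3 were at least 2-fold higher, namely Rbm12b1, Rbm47 and Rbm48, against 13.1% of all tested genes, and no splicing factor was called at least 2-fold lower, against 1.04%. Treated and mock libraries did not overlap for 50 genes with poly(dA:dT) and for 59 with poly(I:C), shares of 57.3% and 76.8% over all tested genes.

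**Figure D1:**
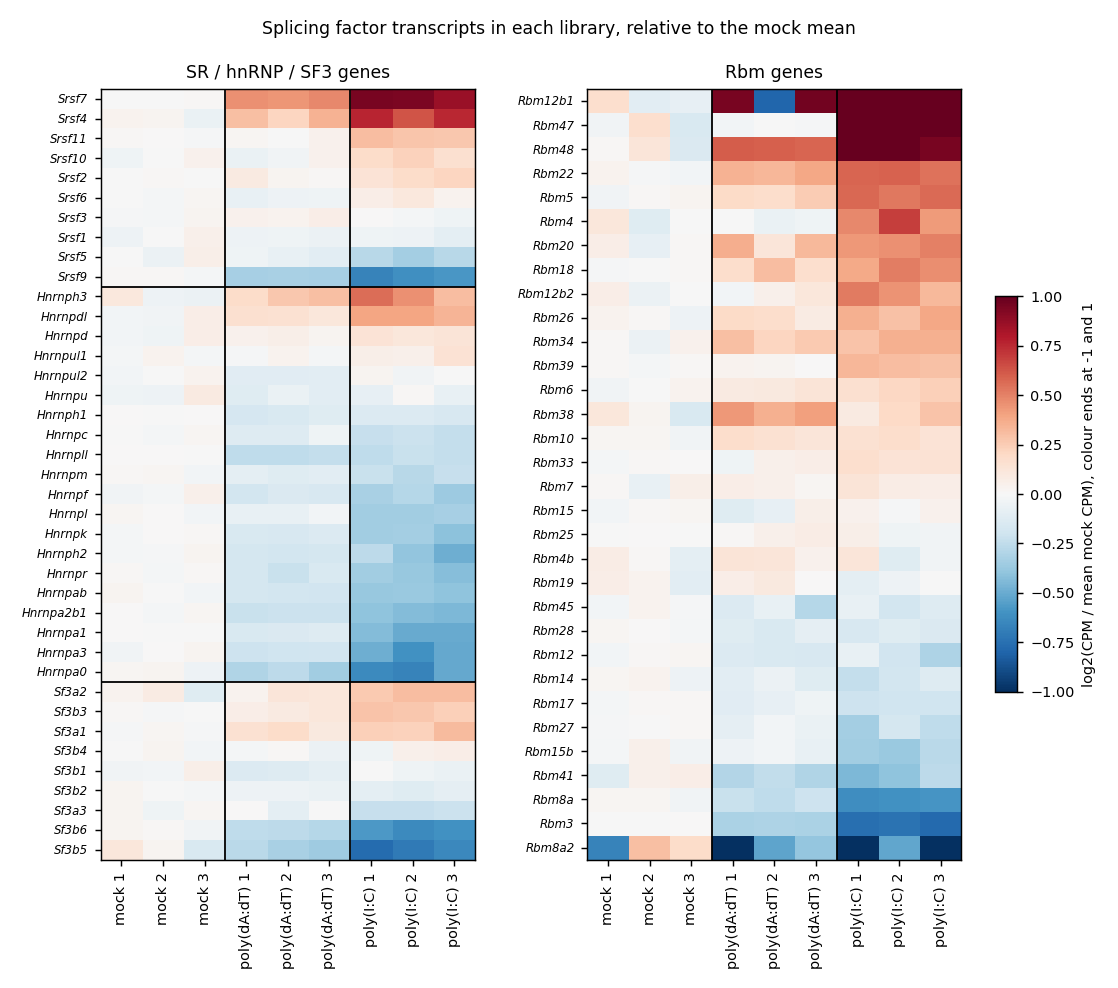
Level of each of the 71 tested genes in each of the 9 libraries as log2 of its CPM over the mean mock CPM, with SR, hnRNP and SF3 genes on the left and Rbm genes on the right, ordered by the poly(I:C) change within a family. Colours end at -1 and 1. With TMM scaling, the hnRNP block holds 14 genes called lower and 4 called higher after poly(I:C), and the SR block 3 and 6.

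The 78 genes together took 1.651% to 1.666% of the reads in mock, 1.633% to 1.644% with poly(dA:dT) and 1.596% to 1.613% with poly(I:C), so the groups did not overlap. Their summed level was 17313 ± 62.8 CPM in mock (SD, n = 3), 16273 ± 52.8 with poly(dA:dT) and 15492 ± 109 with poly(I:C). The hnRNP genes carried most of that difference, at 9297 ± 56.2, 8437 ± 35.9 and 7569 ± 91.8 CPM. The Rbm genes summed to 3277 ± 12.0, 3091 ± 6.58 and 2933 ± 3.15 CPM. Rbm3 alone, at 1140, 917 and 675 CPM, fell by more than that sum did, so the fall was not shared by the family. The SF3 sum was 2309 ± 17.8, 2276 ± 5.67 and 2340 ± 6.89 CPM, and the SR sum 2431 ± 32.3, 2469 ± 13.4 and 2651 ± 26.3 CPM. The summed SR level was thus highest with poly(I:C), where the summed hnRNP level was lowest. Srsf7 alone, at 189, 260 and 357 CPM, made up most of the SR rise with poly(I:C).

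With TMM scaling, abundant genes of any function were mostly called lower in these cells, which sets the scale for the hnRNP genes. Among the 2700 tested genes with a mean of at least 100 CPM, 19.9% were called higher and 59.7% lower with poly(dA:dT), and 25.1% and 67% with poly(I:C). The median log2 fold change of these 2700 genes was -0.11 with poly(dA:dT) and -0.24 with poly(I:C). Library totals in place of TMM shift the median of all genes up by 0.0741 and 0.114, so these shares depend on the scaling. Of the splicing factors, 42 lay at or above 100 CPM. In that class 7 were called higher and 25 lower with poly(dA:dT), and 14 higher and 23 lower with poly(I:C). The 18 hnRNP genes of the class had 1 higher and 15 lower, then 3 higher and 14 lower. The 9 SR genes of the class had 1 higher and 4 lower, then 5 higher and 3 lower.

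Srsf7 had the largest rise among the SR genes and Srsf9 the largest fall. In the SR family, 2 of 10 tested genes were called higher and 4 lower with poly(dA:dT), against 26.6% and 26.2% of all tested genes. With poly(I:C) 6 were higher and 3 lower, against 39.8% and 36.3%. With library totals these counts were 5 and 1, and 8 and 2, and without the first or the third mock library or any of the poly(dA:dT) libraries 1 or 2 SR genes were called lower with poly(dA:dT). Srsf7 (ENSMUSG00000024097, chr17:80200080-80207307, minus strand, GRCm38), an SR protein with a zinc knuckle that works in splicing and in 3′ end choice, was at 188, 189 and 190.3 CPM in the mock libraries, 260.1, 257 and 264 with poly(dA:dT) and 365, 363 and 344 with poly(I:C). The 3 groups stood apart, and each library of a treated group was above every mock library. The log2 fold change was 0.46 ± 0.025 with poly(dA:dT) (edgeR adjusted p = 1.73e-39) and 0.92 ± 0.024 with poly(I:C) (edgeR adjusted p = 2.91e-78), or 1.38 (95% interval 1.33 to 1.42)-fold and 1.89 (95% interval 1.83 to 1.96)-fold. The promoter of Srsf7 is shown because its gene moved most in the family, together with that of Srsf10, which was called higher with poly(I:C) and not with poly(dA:dT). Each line runs 5′ to 3′ from 250 bases before to 50 bases after the RefSeq start site on GRCm38.p6, for Srsf7 at chr17:80207256-80207555 on the minus strand and for Srsf10 at chr4:135855821-135856120 on the plus strand. Capitals mark a match to CCGGAAG, the core of ETS factor sites, in Srsf7 and in Srsf10 to the palindrome that joins TCTCG to its reverse complement.
Srsf7: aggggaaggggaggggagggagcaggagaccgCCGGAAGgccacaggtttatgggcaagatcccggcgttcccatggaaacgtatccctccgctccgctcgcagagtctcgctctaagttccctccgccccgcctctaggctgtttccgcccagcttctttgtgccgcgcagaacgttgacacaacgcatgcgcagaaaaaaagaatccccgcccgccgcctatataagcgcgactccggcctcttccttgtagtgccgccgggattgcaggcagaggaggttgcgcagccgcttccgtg
Srsf10: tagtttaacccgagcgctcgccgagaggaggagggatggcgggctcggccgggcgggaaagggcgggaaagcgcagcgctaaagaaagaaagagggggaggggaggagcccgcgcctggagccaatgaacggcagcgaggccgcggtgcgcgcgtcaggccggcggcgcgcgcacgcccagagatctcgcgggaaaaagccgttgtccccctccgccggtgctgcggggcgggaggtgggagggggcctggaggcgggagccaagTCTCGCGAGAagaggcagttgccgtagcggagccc

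Srsf4, a long SR protein, was at 33.1, 32.8 and 30.8 CPM in mock, 39.7, 37.4 and 41.1 with poly(dA:dT) and 54.7, 49.9 and 54.2 with poly(I:C), again with no overlap between groups. Its log2 fold changes were 0.29 ± 0.052 and 0.71 ± 0.05 (edgeR adjusted p = 6.92e-07 and 1.16e-28). Gm12992, on the opposite strand, covers 43% of the exon bases of Srsf4. Its reads came to 1.07% of those of Srsf4, and without strand in the library, reads of the overlap cannot be assigned to either gene. Srsf9, one of the shortest SR proteins, went the other way, from 143, 142 and 139 CPM in mock to 113, 113 and 113 with poly(dA:dT) and 89.2, 92.4 and 94.6 with poly(I:C). Log2 fold changes were -0.33 ± 0.031 (edgeR adjusted p = 3.83e-19) and -0.62 ± 0.032 (1.99e-42), and the groups did not overlap. Srsf5, whose level follows insulin and serum in other cells, was at 133, 129 and 139 CPM in mock and 109.9, 106 and 110.4 with poly(I:C), a log2 fold change of -0.30 ± 0.032 (edgeR adjusted p = 3e-16). With poly(dA:dT) the Srsf5 libraries overlapped those of mock, and the call of -0.07 (edgeR adjusted p = 0.0383) was lost with upper-quartile or total-count scaling, with either other count filter, and without the first or the third mock or the second or the third poly(dA:dT) library.

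Srsf2, Srsf10 and Srsf11 were called higher with poly(I:C) and not called with poly(dA:dT), and each also differed between the treatments. Srsf11, which associates with the splice site factor U2AF, was at 227, 226 and 224 CPM in mock, 228, 225 and 232 with poly(dA:dT) and 279, 273 and 273 with poly(I:C). Mock and poly(dA:dT) libraries overlapped, and all 3 poly(I:C) libraries were above them. The poly(I:C) libraries exceeded those with poly(dA:dT) by a log2 value of 0.27 ± 0.024 for Srsf11, 0.21 ± 0.027 for Srsf10 and 0.14 ± 0.023 for Srsf2 (edgeR adjusted p = 8.62e-20, 4.24e-12 and 7.77e-08). Srsf10 represses splicing when heat shock removes its phosphates, and Srsf2 is a classical exonic enhancer factor. Srsf2 shares 25.3% of its exon bases with Mfsd11 and Mettl23 on the opposite strand. Mfsd11 was called higher in both comparisons with mock (0.27 and 0.28), and Mettl23 was not called. Whether the counting used strand is not stated, so the count of Srsf2 is uncertain. Srsf1 and Srsf3, which had the highest CPM of the SR genes, moved little. Srsf1, the founding SR protein, was at 459, 474 and 492 CPM in mock and 460.3, 459 and 444 with poly(I:C), in overlapping ranges. It was called lower in both comparisons, by -0.05 and -0.06, but its sign turned with library totals (0.02 and 0.05) and the poly(dA:dT) call was lost in each fit without 1 library except that without the first mock library. Upper-quartile factors and the other count filters also lost that call, and the poly(I:C) call was lost with upper-quartile factors, with at least 50 counts in 3 libraries and without the third mock library. Srsf3, the smallest SR protein, was at 432, 430.3 and 445, 449, 446 and 455 and 437, 429.7 and 423 CPM and was not called against mock, while poly(I:C) was -0.06 ± 0.021 from poly(dA:dT) (edgeR adjusted p = 0.00491). Srsf6 was at 301, 298 and 306 CPM in mock, 287, 291 and 292 with poly(dA:dT) and 316, 325 and 309 with poly(I:C), so it was called lower with the DNA (-0.05 ± 0.023) and higher with the RNA (0.07 ± 0.023).

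**Figure D2:**
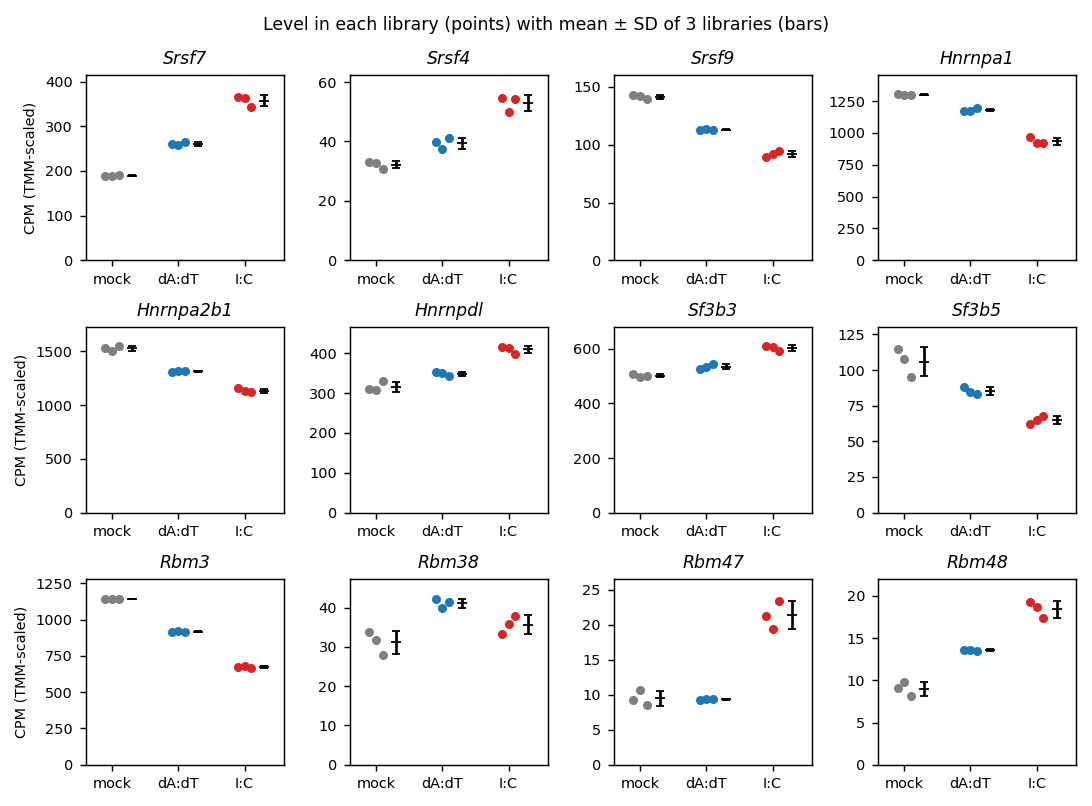
CPM of 12 genes in each library (points) with the mean and SD of the 3 libraries of a group (bars), each axis starting at 0. Srsf7, Srsf4, Hnrnpdl, Sf3b3 and Rbm48 step up from mock to poly(dA:dT) to poly(I:C), Srsf9, Hnrnpa1, Hnrnpa2b1, Sf3b5 and Rbm3 step down, Rbm47 stands apart with poly(I:C), and Rbm38 is highest with poly(dA:dT).

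The hnRNP genes were mostly called lower with either treatment. With poly(dA:dT) 16 of 20 were lower and 2 higher, against 26.2% and 26.6% of all tested genes. With poly(I:C) 14 were lower and 4 higher, against 36.3% and 39.8%. The median log2 fold change was -0.14 and -0.28, and it stayed below 0 with library totals, at -0.07 and -0.17, where the counts were 4 higher and 11 lower, and 6 higher and 13 lower. The 4 lowest log2 fold changes with poly(I:C) were of A/B proteins, which package nascent RNA. Of the 7 genes of the A/B and D class, 5 were called lower with poly(I:C) and 2, Hnrnpd and Hnrnpdl, higher, with a class median of -0.43. Hnrnpa1 (ENSMUSG00000046434, chr15:103240432-103246692), the best known splicing silencer, was at 1306, 1298 and 1299.6 CPM in mock, 1173, 1175 and 1193 with poly(dA:dT) and 965, 919.5 and 918 with poly(I:C). Its libraries separated into 3 levels, with log2 fold changes of -0.14 ± 0.018 and -0.48 ± 0.018 (edgeR adjusted p = 3.07e-12 and 2.49e-58). Hnrnpa2b1, its relative that also binds RNA in transport and has been linked to sensing of viral DNA in the nucleus, was at 1534, 1504 and 1545 CPM in mock, 1307, 1316 and 1316 with poly(dA:dT) and 1156, 1129 and 1120.4 with poly(I:C). The changes on the log2 scale were -0.22 ± 0.017 and -0.43 ± 0.017 (edgeR adjusted p = 2.22e-24 and 1.72e-54).

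Hnrnpa0, an A/B protein encoded in 1 exon, had the largest hnRNP fall. It was at 378, 379 and 361 CPM in mock, 303, 310.4 and 292 with poly(dA:dT) and 239, 235 and 262 with poly(I:C). The log2 fold changes of -0.30 ± 0.025 and -0.61 ± 0.026 had edgeR adjusted p-values of 1.06e-17 and 1.93e-34. Hnrnpa3 followed with -0.54 ± 0.021 with poly(I:C). Sequences at least 95% identical to Hnrnpa3 over at least 200 bases lie in 23 other annotated genes, which took 0.229% as many reads as Hnrnpa3 did. How reads with several hits were counted is not stated, so the count of Hnrnpa3 is uncertain. Hnrnpab, which shares 29.1% of its exon bases with Phykpl on the opposite strand, was at -0.18 and -0.38, and Phykpl itself was not called. Hnrnpk, a poly(C)-binding protein, was at -0.15 and -0.36, Hnrnpf, which binds G-runs, at -0.16 and -0.32, and Hnrnpr at -0.18 and -0.38, all called lower in both comparisons. Hnrnpc, which binds uridine tracts and keeps cryptic exons out, and Hnrnpm were called lower by smaller amounts, -0.23 and -0.24 with poly(I:C).

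Hnrnpdl, Hnrnph3 and Hnrnpd were called higher, against the rest of their classes. Hnrnpdl, whose 3′ exons undergo autoregulated splicing, was at 309, 307 and 329 CPM in mock, 352, 351 and 342 with poly(dA:dT) and 415, 414 and 399 with poly(I:C), with no overlap between groups. Against mock, the log2 values were 0.15 ± 0.023 and 0.38 ± 0.023 (edgeR adjusted p = 1.14e-08 and 3.13e-35). Hnrnph3, a short member of the F/H class, was at 35.1, 31.5 and 31.3, 37, 39.4 and 40.1 and 48.1, 44.9 and 40.5 CPM, and its log2 fold change with poly(I:C) was 0.45 ± 0.053. Its class mates Hnrnpf, Hnrnph1 and Hnrnph2 were all called lower with either treatment. Hnrnpd, which binds AU-rich elements in unstable mRNAs, was called higher with poly(I:C) only (0.13 ± 0.023, edgeR adjusted p = 2.53e-07), and poly(I:C) exceeded poly(dA:dT) by 0.08 ± 0.023 (edgeR adjusted p = 0.000693).

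A few hnRNP genes did not follow the step from poly(dA:dT) to poly(I:C). Hnrnpll, known from the switch of CD45 exons in lymphocytes, was at 162, 162 and 161 CPM in mock, 136, 136 and 137 with poly(dA:dT) and 136, 139 and 137 with poly(I:C). The treated libraries overlapped each other and lay below mock, and the treatments differed by 0.01 ± 0.03 (edgeR adjusted p = 0.749), a ratio of 1.01 (95% interval 0.968 to 1.05). Hnrnph1 likewise stood at 398, 402 and 411 CPM with poly(dA:dT) and 405, 407 and 400.4 with poly(I:C), below 447, 446 and 447 in mock. Hnrnpul2 was lower with poly(dA:dT) (-0.11 ± 0.022) and at -0.00 ± 0.022 with poly(I:C), and the difference between treatments was itself called (0.11 ± 0.022, edgeR adjusted p = 1.47e-05). With library totals the poly(dA:dT) call of Hnrnpul2 was lost and its poly(I:C) value turned to 0.111. Hnrnpu, a scaffold protein of the nuclear matrix, was called lower with poly(dA:dT) (-0.09 ± 0.034) and not with poly(I:C) (-0.04 ± 0.035), but the difference between treatments was not called (edgeR adjusted p = 0.2), and the poly(dA:dT) call was lost without the third mock or the first or the third poly(dA:dT) library, with upper-quartile factors and with library totals, where the poly(I:C) value turned to 0.074.

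**Figure D3:**
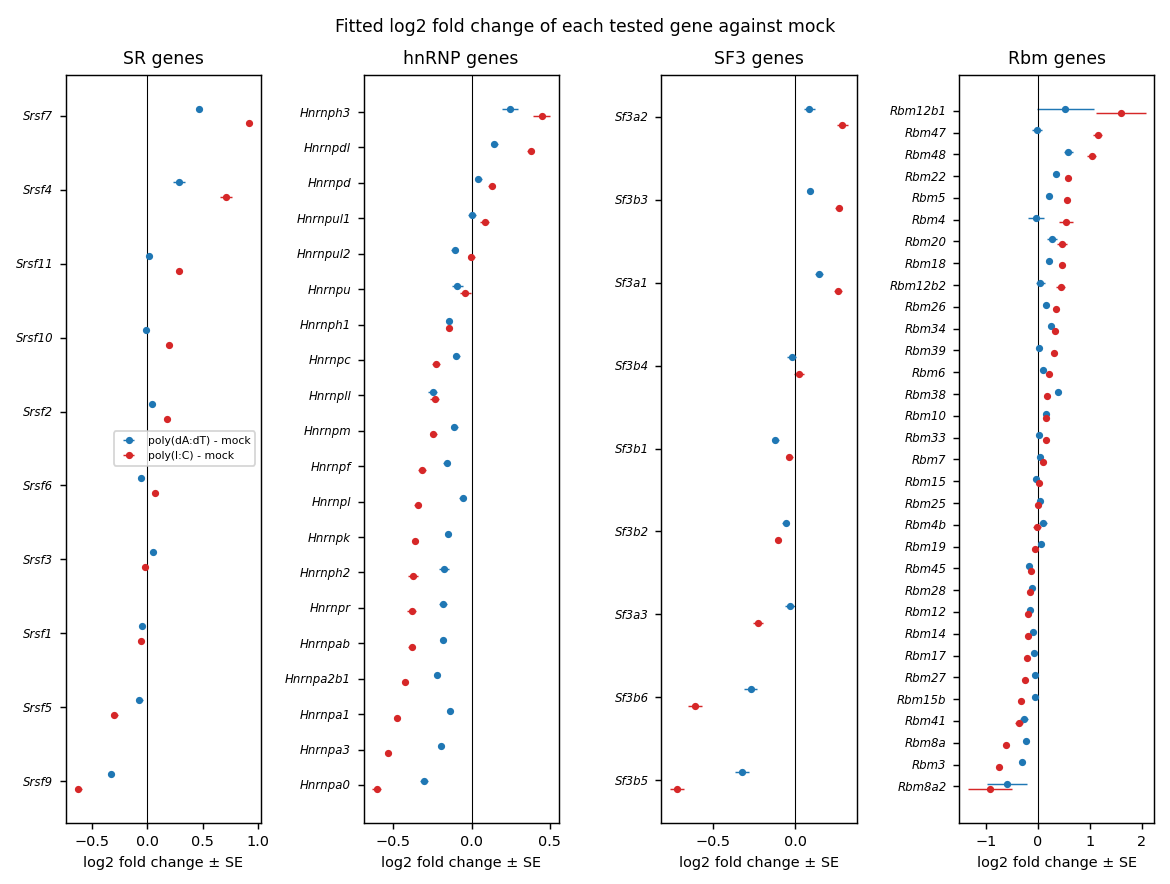
Fitted log2 fold change against mock, with SE, of each tested gene by family, with poly(dA:dT) in blue and poly(I:C) in red; the axes of the 4 panels differ. With TMM scaling most hnRNP points lie left of 0 and the red points lie farther out than the blue ones for Hnrnpa0, Hnrnpa1 and Hnrnpa3.

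The SF3 genes moved in either direction. With poly(dA:dT) 3 of 9 were called higher and 4 lower, against 26.6% and 26.2% of all tested genes. With poly(I:C) again 3 were higher and 4 lower, against 39.8% and 36.3%. With library totals the counts were 3 and 2, and 5 and 3. In SF3a, the subunits that dock U2 snRNP on the branch site, Sf3a1 and Sf3a2 rose while Sf3a3 fell with poly(I:C). Sf3a1 was at 216, 219.7 and 216 CPM in mock, 241, 246 and 232 with poly(dA:dT) and 256, 255 and 270.1 with poly(I:C), with log2 fold changes of 0.14 ± 0.025 and 0.26 ± 0.025 (edgeR adjusted p = 3.14e-07 and 9.52e-19) and no overlap between groups. Sf3a2 was at 110.3, 114 and 99 CPM in mock, 111, 117 and 117 with poly(dA:dT) and 129, 133 and 134 with poly(I:C). It shares 16.1% of its exon bases with Plekhj1 on the opposite strand, which was not called, so the count of Sf3a2 is uncertain. The poly(dA:dT) libraries of Sf3a2 overlapped mock, and its call with poly(dA:dT) (0.09, edgeR adjusted p = 0.0224) was lost with DESeq2 and without the third mock or the second or the third poly(dA:dT) library. Sf3a3 was at 157, 149.5 and 156 CPM in mock, 154, 144 and 154 with poly(dA:dT) and 131, 131 and 133 with poly(I:C), where the log2 fold change was -0.23 ± 0.03 (edgeR adjusted p = 5.23e-12).

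Among the genes with an Sf3b symbol, Sf3b5 and Sf3b6 had the largest falls. Sf3b5 (ENSMUSG00000078348, chr10:13005343-13009183, plus strand), encoded in 1 exon, was at 115, 108 and 95.3 CPM in mock, 88, 84.8 and 82.9 with poly(dA:dT) and 62.3, 64.8 and 67.8 with poly(I:C). The fitted log2 changes were -0.32 ± 0.04 and -0.72 ± 0.043 (edgeR adjusted p = 6.1e-10 and 1.55e-22), and the groups did not overlap. Sf3b6, the p14 protein that touches the branch point adenosine, was at 72.3, 71.5 and 69.5 CPM in mock, 59.8, 59.2 and 58.2 with poly(dA:dT) and 47.7, 45.9 and 46.6 with poly(I:C). Its log2 changes came to -0.27 ± 0.04 and -0.61 ± 0.042 (edgeR adjusted p = 2.12e-09 and 1.89e-29). Sf3b3, the large propeller-shaped scaffold of SF3b, rose, from 507, 499 and 502 CPM in mock to 527, 534 and 544 with poly(dA:dT) and 612, 606 and 592 with poly(I:C). Its log2 fold changes were 0.09 ± 0.02 and 0.26 ± 0.02 (edgeR adjusted p = 4.21e-05 and 2.4e-26). Sf3b1, the clamp around the branch helix and the subunit mutated in myelodysplasia, was at 406, 409 and 432 CPM in mock, 378, 381 and 388 with poly(dA:dT) and 414, 405 and 396 with poly(I:C). It was called lower with poly(dA:dT) only (-0.12 ± 0.022), and the treatments differed by 0.08 ± 0.022 (edgeR adjusted p = 0.000472). That call was also lost with library totals, where the poly(I:C) value of Sf3b1 turned to 0.0782. Sf3b4 was not called in any comparison, with log2 values of -0.02 ± 0.03 and 0.02 ± 0.031 against mock.

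Per length of annotated exon, the levels of the 9 subunits with an Sf3 symbol differed in mock. That length joins the exons of all annotated transcripts, also those that retain introns, so the order of the subunits can depend on the annotation. They ran from 24.9 ± 0.504 CPM per kb for Sf3b6 to 88.3 ± 1.49 for Sf3b2 (SD, n = 3). Next to Sf3b6 were Sf3b5 at 27.6 ± 2.57, Sf3a1 at 35.3 ± 0.387 and Sf3b1 at 36.6 ± 1.26 CPM per kb. In mock the libraries of Sf3b5 and Sf3b6 overlapped, and those of Sf3a1 and Sf3b1 met at the edges of their ranges. With poly(I:C), Sf3b5 and Sf3b6 were at 16.9 ± 0.716 and 16.4 ± 0.318 CPM per kb and Sf3b3 at 55.3 ± 0.941, so the spread between these subunits was wider than in mock. Promoters of SF3 genes are shown because subunits that moved in opposite directions share a motif. CCGGAAG, searched on either strand, was found in 6 of the 7 SF3 genes with a promoter in the table, Sf3a1, Sf3a2, Sf3a3, Sf3b2, Sf3b3 and Sf3b6, and in 9.93% of all 27025 genes with one. The window of Sf3a1, which rose, is chr11:4160104-4160403 on the plus strand, and that of Sf3b6, which fell, is chr12:4817358-4817657 on the plus strand and holds a match on each strand. Capitals mark the matches, CCGGAAG or its reverse complement CTTCCGG.
Sf3a1: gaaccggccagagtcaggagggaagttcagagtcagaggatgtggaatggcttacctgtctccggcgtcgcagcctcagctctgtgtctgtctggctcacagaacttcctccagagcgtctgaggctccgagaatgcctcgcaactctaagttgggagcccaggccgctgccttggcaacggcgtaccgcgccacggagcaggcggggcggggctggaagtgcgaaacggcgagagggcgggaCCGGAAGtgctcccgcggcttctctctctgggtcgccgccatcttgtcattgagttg
Sf3b6: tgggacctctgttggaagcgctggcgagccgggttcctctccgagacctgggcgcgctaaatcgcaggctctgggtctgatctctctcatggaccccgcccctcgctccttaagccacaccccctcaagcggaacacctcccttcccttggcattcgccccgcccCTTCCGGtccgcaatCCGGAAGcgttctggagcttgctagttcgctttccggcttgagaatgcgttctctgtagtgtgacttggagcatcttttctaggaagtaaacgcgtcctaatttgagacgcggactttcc

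**Figure D4:**
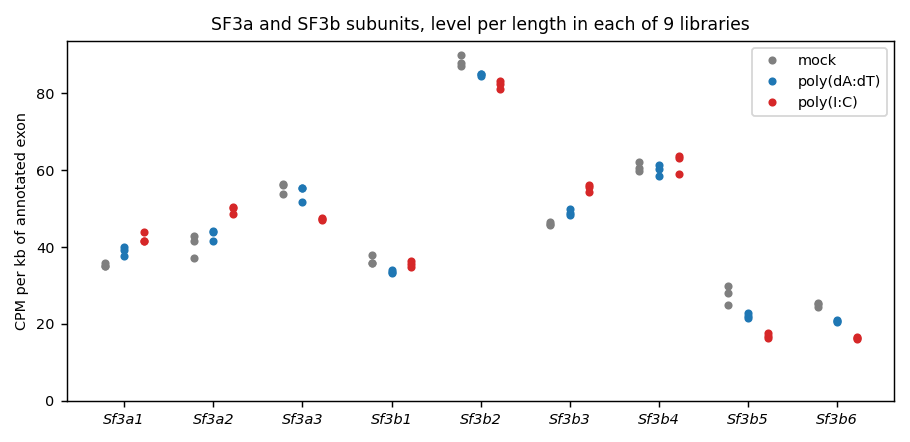
CPM per kb of annotated exon of the 9 genes with an Sf3a or Sf3b symbol, with 1 point per library. Mock, poly(dA:dT) and poly(I:C) stand side by side. With TMM scaling Sf3b5 and Sf3b6 lie lowest and step down, and Sf3a1 and Sf3b3 step up.

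Among the Rbm genes, Rbm47 rose and Rbm3 fell with poly(I:C). In that family 10 of 32 tested genes were called higher and 8 lower with poly(dA:dT), against 26.6% and 26.2% of all tested genes. With poly(I:C) 17 were higher and 11 lower, against 39.8% and 36.3%. With library totals these counts were 15 and 3, and 19 and 6. Rbm47 (ENSMUSG00000070780, chr5:66016549-66173118, minus strand), an RNA-binding protein that regulates splicing and mRNA stability and takes part in APOBEC1 editing, was at 9.27, 10.7 and 8.53 CPM in mock, 9.3, 9.45 and 9.39 with poly(dA:dT) and 21.2, 19.4 and 23.4 with poly(I:C). Mock and poly(dA:dT) libraries overlapped and every poly(I:C) library was above them. The log2 fold change was -0.02 ± 0.10 with poly(dA:dT) (edgeR adjusted p = 0.863) and 1.15 ± 0.086 with poly(I:C) (edgeR adjusted p = 4.32e-27). The difference between the treatments was 1.18 ± 0.087 (edgeR adjusted p = 5.96e-27), or 2.26 (95% interval 2.01 to 2.54)-fold. It is expressed mostly in epithelia, and a list of 5 epithelial markers summed to 8.95 to 10.3 CPM in mock, 8.51 to 9.44 with poly(dA:dT) and 8.92 to 9.31 with poly(I:C), ranges that overlap. Krt18, which made up most of that sum, was called lower with poly(I:C) (-0.37 ± 0.11). The epithelial markers Cdh1 and Krt14 were called higher with poly(I:C), by 1.18 ± 0.32 and 1.02 ± 0.34 (edgeR adjusted p = 0.000497 and 0.00501), at low levels of 0.97, 1.9 and 1.32 and 1.6, 0.69 and 1.44 CPM, and both were also called higher against poly(dA:dT). Epcam and Krt8 had too few reads to be tested. The part of these markers in the Rbm47 result was not tested.

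Rbm3 (ENSMUSG00000031167, chrX:8138975-8145880, minus strand), induced by mild cold and a translation factor at ribosomes, was at 1140.0, 1139.7 and 1141 CPM in mock, 915, 919 and 917 with poly(dA:dT) and 675, 683 and 666 with poly(I:C). Libraries of a group were nearly equal and the groups were far apart, with log2 fold changes of -0.31 ± 0.018 and -0.76 ± 0.018 (edgeR adjusted p = 8.88e-37 and 8.73e-84). Cirbp, the other cold-induced protein of the same build, went up, from 24.3, 26.7 and 24.2 CPM in mock to 36.1, 36.2 and 33.3 with poly(dA:dT) and 46.5, 45.3 and 49.2 with poly(I:C). Log2 fold changes were 0.49 ± 0.056 and 0.90 ± 0.055 (edgeR adjusted p = 8.6e-14 and 9.42e-35). Rbm8a encodes Y14, a core protein of the exon junction complex. It was at 212, 211 and 204 CPM in mock, 179, 175 and 181 with poly(dA:dT) and 136, 137 and 139 with poly(I:C), with log2 fold changes of -0.23 ± 0.027 and -0.61 ± 0.028 (edgeR adjusted p = 6.12e-14 and 5.04e-48). Magoh, the partner that binds Y14, was at -0.26 and -0.67, and Eif4a3, which clamps the complex on RNA, at -0.10 and -0.26, all called lower. Casc3, a further protein of the complex, was called higher, from 114, 114 and 109 CPM in mock to 149, 141 and 139 and 181, 174 and 180.4 (0.34 ± 0.03 and 0.66 ± 0.03). Rbm8a2 matches Rbm8a over 704 bases and had 106 reads in all, so its call with poly(I:C), which several alternatives lost, is uncertain.

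Rbm48, a protein of the minor spliceosome, was at 9.06, 9.76 and 8.11 CPM in mock, 13.7, 13.6 and 13.4 with poly(dA:dT) and 19.3, 18.7 and 17.3 with poly(I:C). The changes on the log2 scale were 0.59 ± 0.09 and 1.04 ± 0.087 (edgeR adjusted p = 5.57e-09 and 4.81e-23). The count of Rbm48 is uncertain, because whether the counting used strand is not stated. Rbm5, a tumour suppressor that controls exons of apoptosis genes, was at 113, 116 and 118, 132, 130.3 and 138 and 172, 167 and 172 CPM, with log2 fold changes of 0.21 ± 0.03 and 0.56 ± 0.03. Rbm22, a protein of the catalytic spliceosome, was at 63.9, 61.8 and 61.2, 79.2, 78.3 and 81.4 and 93.3, 93.9 and 90.8 CPM, with 0.35 ± 0.038 and 0.57 ± 0.038. In both genes the 3 groups did not overlap. Rbm18 and Rbm26 were called higher in both comparisons, by 0.46 and 0.34 with poly(I:C). Rbm12b2 matches Rbm12b1, which had 80 reads in all, over 2737 bases, and near-identical stretches also link Rbm4 with 2 other genes, of which Rbm4b had the most reads, so the calls of Rbm12b1 (1.59), Rbm12b2 (0.44) and Rbm4 (0.54) with poly(I:C) are uncertain, and the call of Rbm12b1 was lost without the second poly(I:C) library.

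Rbm38, a target of p53 that binds AU-rich and GU-rich elements, was higher with poly(dA:dT) than with poly(I:C). It was at 33.8, 31.7 and 28 CPM in mock, 42.1, 39.9 and 41.4 with poly(dA:dT) and 33.2, 35.7 and 38 with poly(I:C). The poly(dA:dT) libraries were above all others, and those with poly(I:C) overlapped mock. The log2 fold change was 0.39 ± 0.054 with poly(dA:dT) (edgeR adjusted p = 1.96e-10) and 0.18 ± 0.056 with poly(I:C) (edgeR adjusted p = 0.0027), a call lost without the third mock library and with DESeq2. The treatments differed by -0.21 ± 0.054 (edgeR adjusted p = 0.000376). Rbm39, an SR-like coactivator that is degraded by aryl sulfonamide drugs, was at 303, 296 and 303 CPM in mock, 308, 307 and 302 with poly(dA:dT) and 378, 372 and 369 with poly(I:C). The mock and poly(dA:dT) libraries overlapped, and poly(I:C) gave 0.31 ± 0.022 against mock and 0.29 ± 0.022 against poly(dA:dT) (edgeR adjusted p = 4.58e-28 and 6.41e-25). The table holds 2 promoters for Rbm39. The one at chr2:156180189-156180488 on the minus strand is shown because it carries, in capitals, the same palindrome as that of Srsf10, which had a like pattern, and the other, at chr2:156179531-156179830, has no match to any motif searched. The palindrome was found in 4 of the 65 splicing factor genes with a promoter in the table, Rbm15, Rbm26, Rbm39 and Srsf10, and in 0.525% of all genes with one.
Rbm39: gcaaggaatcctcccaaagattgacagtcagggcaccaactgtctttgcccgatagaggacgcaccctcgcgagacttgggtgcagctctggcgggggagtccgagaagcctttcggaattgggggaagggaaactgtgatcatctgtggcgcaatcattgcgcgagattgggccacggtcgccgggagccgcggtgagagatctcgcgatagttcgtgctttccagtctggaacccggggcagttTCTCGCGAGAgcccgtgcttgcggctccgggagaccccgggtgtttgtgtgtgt

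Of these 4 genes, Rbm26, Rbm39 and Srsf10 were called higher with poly(I:C), as were 39.8% of all tested genes. Rbm15 was not called (0.02 ± 0.054). Rbm26 was also called higher with poly(dA:dT) (0.15 ± 0.041), where Rbm39 and Srsf10 were not called. A link between the palindrome and the calls was not tested. GAAA repeated after a gap of any 2 bases, the core of the interferon-stimulated response element, were found in 3 of the 65 genes, Rbm28, Rbm31y and Rbm41, or 4.62%, and in 3.99% of all genes with a promoter. Rbm28 and Rbm41 were called lower with poly(I:C), as were 36.3% of all tested genes. TGANTCA, the AP-1 site, was in Hnrnpa1 and Rbm38, 3.08% against 8.97% of all genes, TGACGTCA in none against 2.03%, and TATAAA in 13.8% against 15.7%. Both strands were searched. The motifs were looked for in windows of 300 bases, matches are a description of letters, and CCGGAAG was in 24.6% of the splicing factor genes.

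Poly(I:C) and poly(dA:dT) were also compared with each other, a comparison that needs no mock library. Of the 71 genes, 27 were called higher with poly(I:C) and 27 lower, against 31.3% and 32.1% of all tested genes. Libraries of the treatments did not overlap for 56 genes, against 66.1% of all tested genes. Of the 42 genes at or above 100 CPM, 15 were higher and 20 lower, where 23.1% and 61.8% of all genes at that level were. The SR family had 6 higher and 3 lower, the hnRNP family 5 and 12, the SF3 family 4 and 4, and the Rbm family 12 and 8. Beside Rbm12b1 and Rbm4, whose counts are uncertain, the largest rises were of Rbm47, Srsf7 (0.46 ± 0.024), Rbm48 (0.45 ± 0.081) and Srsf4 (0.42 ± 0.049). Rbm3 (-0.44 ± 0.018), Sf3b5 (-0.39 ± 0.044) and Rbm8a (-0.38 ± 0.028) led the falls. The treatments were given at the same mass per volume, and the labels give no measure of how much of either entered the cells. Ifnb1, the interferon β gene, had 1 read in the 3 mock libraries together, 4.86 ± 0.789 CPM with poly(dA:dT) and 88.2 ± 5.6 with poly(I:C).

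Among other splicing genes, kinases of SR proteins were mostly called higher and U1, Sm and U2 proteins without an Sf3 symbol mostly lower. Beside them, 26.6% of all tested genes were called higher and 26.2% lower with poly(dA:dT), and 39.8% and 36.3% with poly(I:C). With library totals 5004 higher and 2389 lower, then 6693 and 4072, of all 14176 tested genes were called. Of 8 SR protein kinases and their relatives, 6 were called higher and 1 lower with poly(dA:dT), and 7 and 0 with poly(I:C), with medians of 0.14 and 0.18. Clk4, a nuclear kinase that frees SR proteins from speckles, was at 32.2, 33.4 and 30.6 CPM in mock, 55.1, 52.2 and 55.8 with poly(dA:dT) and 90.1, 84.9 and 86.5 with poly(I:C), with no overlap. Against mock, the log2 values were 0.76 ± 0.047 and 1.44 ± 0.044 (edgeR adjusted p = 3.18e-33 and 2.87e-69). Clk3 was at 0.35 and 0.59, and Srpk2, a cytoplasmic SR kinase, at -0.09 (called lower) and -0.08 (not called). Of 21 other RS-domain proteins, 11 were called higher and 7 lower, then 10 and 8, and 12 and 2, then 13 and 5, with library totals. Srrm2, a scaffold of nuclear speckles, rose from 459, 461 and 464 CPM in mock to 639, 647 and 627 and 785, 766 and 812 (0.47 ± 0.02 and 0.77 ± 0.02), and Rsrc2 rose by 0.52 and 1.07. Luc7l2, Pnn and Sfswap were called lower in both comparisons, by -0.25, -0.29 and -0.28 with poly(I:C).

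Of 19 U1, Sm and U2 proteins lacking Sf3 symbols, 1 was called higher and 14 lower with poly(dA:dT), and 2 and 16 with poly(I:C). The medians were -0.16 and -0.30, and the list holds Phf5a, an SF3b protein that the symbol rule leaves out. Over all tested genes, 26.2% and 36.3% were called lower, and 59.7% and 67% of those with at least 100 CPM. With library totals the list had 3 higher and 10 lower, then 3 and 13. Snrpd2, of the Sm ring, was at 145, 145 and 136 CPM in mock, 112, 106 and 115 with poly(dA:dT) and 82.7, 81.5 and 80.8 with poly(I:C) (-0.36 ± 0.031 and -0.80 ± 0.033), and Snrpd1 and Snrpd3 were at -0.62 and -0.78 with poly(I:C). Sf1, the branch point binding protein that SF3 replaces, rose from 405, 409 and 399.8 CPM in mock to 455, 463 and 464 and 543, 554 and 563 (0.19 ± 0.021 and 0.45 ± 0.021). Of 22 tri-snRNP proteins, 6 were called higher and 12 lower, then 4 and 15, and 6 and 8, then 7 and 12, with library totals. Lsm7 and Lsm3, of the ring on U6, were at -0.92 and -0.80 with poly(I:C), whereas Prpf3 was at 0.65. Of 20 Prp19 complex and catalytic step proteins, 3 were called higher and 8 lower, then 4 and 11, and 8 and 3, then 6 and 8, with library totals. Bud31 and Dhx8 were at -0.52 and -0.53 with poly(I:C), and Slu7 at 0.35.

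Over all tested genes, 26.6% were called higher and 26.2% lower with poly(dA:dT), and 39.8% and 36.3% with poly(I:C). Of 14 exon junction complex and decay proteins, 5 were called higher and 3 lower, then 6 and 3. With library totals these proteins had 8 and 1, then 9 and 3. Of 9 minor spliceosome proteins, 2 were called higher and 2 lower, then 4 and 3, and 4 and 0, then 5 and 3, with library totals. Snrnp48 was at 0.89 and Snrnp25 at -0.63 with poly(I:C). Of 33 other splicing regulators, 5 were called higher and 16 lower, then 8 and 20, and 11 and 9, then 12 and 15, with library totals. Ptbp2, the neural relative of the polypyrimidine tract protein, rose from 49.2, 49 and 52.3 CPM in mock to 65.8, 69.6 and 66.1 and 89.4, 94.7 and 93.1 (0.43 ± 0.041 and 0.89 ± 0.04). Tardbp, which encodes TDP-43, fell from 362, 356 and 356 CPM in mock to 303, 305 and 311 and 252, 250.1 and 242 (-0.23 ± 0.023 and -0.53 ± 0.023), and Mbnl1, the muscleblind regulator, was at -0.27 and -0.38.

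**Figure D5:**
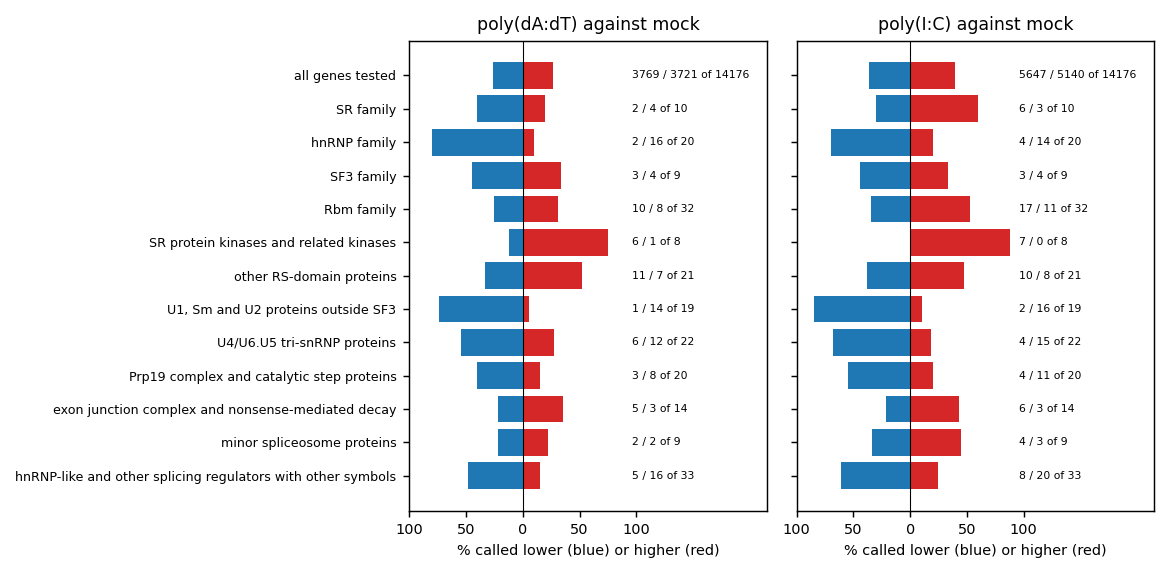
Share of the tested genes called higher (red, to the right) and lower (blue, to the left) in each family and splicing list beside all 14176 genes tested, with the counts printed as higher / lower of tested. With TMM scaling the hnRNP genes and the U1, Sm and U2 list lean lower, and the SR protein kinases lean higher; with library totals the Prp19 list and the other splicing regulators have more genes called higher than lower with poly(dA:dT).

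The genes were also split by their annotated structure, each class beside all tested protein-coding genes of the same kind. Of the 71 genes, 32 have an annotated nonsense-mediated decay transcript in GENCODE M21. Of these, 16 were called higher and 10 lower with poly(I:C), with a median of 0.03, where 45.1% and 34.5% of the 3614 coding genes with such a transcript were called and their median was 0.07. Of the other 39, 14 were higher and 22 lower, with a median of -0.14, against 37% and 40.9% of 9100 coding genes and a median of -0.02. With poly(dA:dT) the counts were 10 and 13, against 32.1% and 26%, and 7 and 19, against 26.2% and 29.5%. Coding genes of any function thus also differed by this class, with more called higher among those with such a transcript. The files count genes, so how much of a gene's reads came from such transcripts was not analysed here. Srsf7, Srsf4 and Hnrnpdl, which rose, have such transcripts, and so do Srsf9, Hnrnpa1, Hnrnpa2b1 and Rbm3, which fell. The 4 genes of 1 exon, Hnrnpa0, Sf3b5, Rbm15b and Rbm8a2, were all called lower with poly(I:C), with a median of -0.66. The call of Rbm8a2, with 106 reads in all, is uncertain. Of 336 coding genes of 1 exon, 44.6% were called higher and 30.7% lower. Genes whose exons span under 4000 bases had 10 higher and 14 lower of 25 with poly(I:C), with a median of -0.19, where 34.5% and 43.3% of coding genes of that length were called and their median was -0.08. The 46 longer ones had 20 and 18, with a median of -0.01, against 43% and 35.9% and a median of 0.05. These classes were read off after the calls and were not tested.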

How the data were processed

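RNA libraries (TruSeq RNA v2, per the labels) were sequenced by the authors, and the deposited files hold raw read counts for each Ensembl gene. The submitters' processing notes name TopHat2 2.1.0, HTSeq, DESeq2 and GRCm38.p4; strand setting, annotation release and the handling of reads with several hits are not named there. Of 46603 identifiers, 46005 matched GENCODE M21, and the other 598 held 0.0914% of the counts. All libraries were fitted together in edgeR 4.0.16 (R 4.3.3): filterByExpr by group, TMM, robust quasi-likelihood fit with 6 residual degrees of freedom, prior count 0.125, Benjamini-Hochberg adjustment over 14176 genes. SE is the log2 fold change over the root of F, and fold intervals cover 95%. Counts were simulated for poly(I:C) against mock (13361 genes), with 50 genes changed per fold, up or down, and all others left unchanged. There, 92% of 1.2-fold changes and 100% of changes of 1.5-fold or more were recovered, with 13 false calls. In the data far more genes were called and the calls depended on the scaling. The simulation therefore does not give the rate of false calls in the data, or the recovery of changes under 1.2-fold. Near-identical copies were searched with minimap2. Promoters are RefSeq's, for 65 of the 78 genes.

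Alternatives were DESeq2 1.42.0, other scalings and filters, fits of the groups compared only, a replicate block, and leaving out each library. Named genes were a list of 43 main genes, the 3 called genes with the largest rise and fall per family, and the 2 per splicing list. Some results are not reported here. The genes and lists were chosen with earlier results of these data known. Libraries of 1 group differed by more than sampling noise (chi-square per degree of freedom 1.64 to 2.1), so none was counted as a repeat.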

Additional observations from a re-analysis of the deposited data

Results flagged for a closer look

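Srsf6 moved in opposite directions in the 2 treatments. It was called lower with poly(dA:dT) (log2 fold change -0.05 ± 0.023, edgeR adjusted p = 0.036) and higher with poly(I:C) (0.07 ± 0.023, edgeR adjusted p = 0.00323), and the difference between the treatments, poly(I:C) minus poly(dA:dT), was itself called (0.13 ± 0.023, edgeR adjusted p = 5.67e-07). The 3 groups of libraries did not overlap. The call with poly(dA:dT) was lost with library totals, where the value was 0.02, with upper-quartile factors, with either other count filter, and without the first or the third mock or the first or second poly(dA:dT) library. The call with poly(I:C) was lost with DESeq2, with no count filter and without the second poly(I:C) library.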

How the results depend on the processing

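With library totals in place of TMM factors, 27 splicing factors were called higher and 17 lower with poly(dA:dT), in place of 17 and 32. Over all tested genes the split became 5004 and 2389, from 3769 and 3721, and with poly(I:C) 6693 and 4072, from 5647 and 5140. Under the other settings each of these 6 counts stayed within 1.5 times the reported one. Leaving out 1 library gave 15 to 18 higher and 26 to 28 lower with poly(dA:dT), 28 to 29 and 30 to 33 with poly(I:C), and 25 to 28 and 24 to 27 between the treatments. The median over the 71 genes changed sign with library totals (0.0309 for poly(dA:dT) and 0.0961 for poly(I:C)). With poly(I:C) it was 0.0147 with upper-quartile factors and 0.0256 with at least 50 counts in 3 libraries. Between the treatments it was -0.0222 with no filter, -0.00268 with DESeq2, and -0.00669 to 0.0104 without 1 library (-0.00669 without the third poly(dA:dT) library, -0.00424 without the second poly(I:C) library). The cause was not tested.

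With library totals the log2 fold change with poly(dA:dT) turned to 0.0233 for Srsf1, 0.00195 for Srsf5, 0.0192 for Srsf6, 0.0167 for Hnrnpl, 0.0165 for Sf3b2 and 0.0661 for Dhx15. With poly(I:C) it turned to 0.0532 for Srsf1 (edgeR adjusted p = 0.0183, a call in the other direction), 0.0964 for Srsf3, 0.074 for Hnrnpu, 0.0782 for Sf3b1, 0.0109 for Sf3b2, 0.108 for Rbm25, 0.111 for Hnrnpul2 and 0.00919 for Rsrp1. Of 3983 values recomputed for named genes, 3792 kept direction and call, 126 lost the call and 51 gained one.

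Libraries that share a replicate number did not deviate together (correlations -0.0331 to 0.0317), so the numbers were not taken to pair them. A fit with the replicate number as a block called 17 splicing factors higher and 31 lower with poly(dA:dT), 30 and 32 with poly(I:C), and 27 and 27 between the treatments; the call of Srsf1 with poly(dA:dT) was the 1 lost (edgeR adjusted p = 0.0505). Depth limits Rbm8a2, Rbm12b1 and Rbm4, where 3 counts are 0.107 to 0.18 CPM.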
